A study of Mus musculus with 8 samples.

Results

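The regions described here are stretches of chromatin with an accessibility peak in both libraries of mouse satellite cells treated with siRNA against LncMyod and in none of the other 6 libraries of the study. Peaks of all 8 libraries on chromosomes 1 to 19 were merged wherever they overlapped, and a merged region was assigned to a library that had a peak sharing 1 bp or more with it. Of 139157 merged regions, 1783 (1.28%) were held by both LncMyod Knockdown libraries and by no other, and they are called knockdown-only regions below. They were chosen by the presence of peaks in the knockdown lists and their absence from the 6 others, so every statement on knockdown against the other groups at these regions is a description with no test.

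The study measured open chromatin by ATAC-seq, in which the Tn5 transposase cuts accessible DNA and tags it for sequencing, in satellite cells from C57BL/6 mice. It had 4 groups of 2 libraries: freshly isolated cells (QSC, which usually stands for quiescent satellite cells), cells isolated 2.5 days after injury (ASC, usually activated satellite cells), and 2 cultured groups on the way to differentiation, which received either a control siRNA (LncMyod Control) or, for 48 h before harvest, an siRNA that targets LncMyod (LncMyod Knockdown). Culture and siRNA delivery were thus shared by the cultured groups only. All cells came from hindlimb muscle, and 1 of the knockdown libraries is spelled LndMyod in its treatment label. Whether replicates are separate animals or cultures is not stated, and a p-value therefore reflects the spread among these libraries alone. The part of that spread between replicates may be technical. RNA was not measured in these files, so they hold no check of how far LncMyod was lowered.

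Satellite cells are the stem cells of skeletal muscle. They rest beside the muscle fibre, enter the cell cycle after injury and differentiate under transcription factors such as MyoD, which binds E-boxes, short sequences of the form CANNTG, where N is any base. LncMyod is a long noncoding RNA transcribed from the neighbourhood of the MyoD gene, and it is known to bind IGF2BP2, a protein that holds on to growth-related messenger RNAs such as that of insulin-like growth factor 2. The knockdown group addresses whether LncMyod takes part in the chromatin changes of differentiating cells.

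A few promoters show what the knockdown-only regions at gene starts looked like in sequence. They are the 3 protein-coding genes with the strongest regions among those whose whole promoter window (250 bases before the start and 50 after it) lay inside a knockdown-only region, and Igf2, whose locus held the most regions relative to its length among the leading loci. Each line gives the 250 bases before the start on the strand of the gene, 5′ to 3′, with every CANNTG in capitals. The sequences are from RefSeq on GRCm38.p6.
Defb28, chr2:152518005-152518254, plus strand: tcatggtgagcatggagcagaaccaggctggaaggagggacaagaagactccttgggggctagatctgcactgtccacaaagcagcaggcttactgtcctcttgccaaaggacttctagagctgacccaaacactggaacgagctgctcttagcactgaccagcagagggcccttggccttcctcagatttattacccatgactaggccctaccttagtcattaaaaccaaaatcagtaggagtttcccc
Ccdc185, chr1:182749181-182749430, minus strand: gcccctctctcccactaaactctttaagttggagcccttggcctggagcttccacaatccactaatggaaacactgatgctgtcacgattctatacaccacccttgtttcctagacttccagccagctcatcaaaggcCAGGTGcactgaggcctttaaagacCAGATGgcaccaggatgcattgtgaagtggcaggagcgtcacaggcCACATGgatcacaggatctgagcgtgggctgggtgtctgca
Opcml, chr9:27791049-27791298, plus strand: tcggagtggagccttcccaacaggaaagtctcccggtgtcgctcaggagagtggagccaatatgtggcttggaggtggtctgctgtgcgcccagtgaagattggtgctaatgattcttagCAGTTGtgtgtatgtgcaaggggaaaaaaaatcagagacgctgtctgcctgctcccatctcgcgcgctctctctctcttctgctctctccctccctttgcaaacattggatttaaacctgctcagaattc
Igf2, chr7:142666817-142667066, minus strand: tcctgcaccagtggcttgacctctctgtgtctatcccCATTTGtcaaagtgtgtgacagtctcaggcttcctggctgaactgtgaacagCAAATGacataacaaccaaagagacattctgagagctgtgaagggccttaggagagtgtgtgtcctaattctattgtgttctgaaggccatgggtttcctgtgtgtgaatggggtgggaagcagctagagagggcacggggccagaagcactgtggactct
These stretches held 0 E-boxes at Defb28, 3 at Ccdc185, 1 at Opcml and 2 at Igf2. CG dinucleotides, the pair that is dense in CpG islands, numbered 1 at Defb28, 3 at Ccdc185, 8 at Opcml and 1 at Igf2 in 250 bases. Their GC content was 51.6% at Defb28, 53.2% at Ccdc185, 52.0% at Opcml and 50.8% at Igf2. A match to these letters is a description and not a binding site.

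The libraries held between 59666 and 95449 peaks over all chromosomes, LncMyod Knockdown replicate 1 having the most, and on chromosomes 1 to 19 the peaks covered between 41.7 and 63.0 Mb. Peaks were called on each library by itself, without read counts in the lists. Sequencing depth is therefore unknown, and a missing peak does not show that chromatin was closed. Each peak carries the authors' fold enrichment over the background of its own library and a −log10 q, where a larger value marks a more certain peak, and both are relative to the library they come from. The knockdown libraries had the most regions of their own: 8989 regions were held by LncMyod Knockdown replicate 1 alone and 9753 by replicate 2 alone, against 2222 to 3570 in each of the other 6 libraries. The part of this in the number of knockdown-only regions was not tested. Loci that define satellite cells carried peaks in all 8 libraries: those of Pax7 and Myf5, early myogenic transcription factor genes, Myod1 itself, and the surface protein genes Cdh15, Itga7 and Vcam1. None of these 6 loci held a knockdown-only region.

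Knockdown-only regions were few beside the regions the knockdown libraries held in common with other cells. Both knockdown libraries held 64220 regions, of which the 1783 were 2.78%, while 34676 regions were held by all 8 libraries and 6663 by the 4 cultured libraries only. The same definition gave 7111 regions (5.11%) held by QSC alone, 1186 (0.852%) by ASC alone and 1146 (0.824%) by LncMyod Control alone. That order of knockdown against the ASC and control groups did not hold with stricter or shorter lists. With every list at a −log10 q of at least 2 the counts were 464 for knockdown, 1081 for ASC and 1394 for control, at 5 or more they were 84, 806 and 1395, and with lists of equal length they were 295, 2546 and 738. A wider set of 3109 regions was held by both knockdown libraries and neither LncMyod Control library. A further 1751 regions missed the definition through 1 other library, most often LncMyod Control replicate 1 (625 regions) or replicate 2 (480), then ASC replicate 2 (351) and replicate 1 (219), and seldom QSC replicate 1 (43) or replicate 2 (33). The lower knockdown fold is the smaller of the folds in the 2 knockdown libraries. Its median was 2.53 in the regions shared with control replicate 1 and 2.43 with control replicate 2, against 2.37 in the knockdown-only regions. Regions shared with 1 isolated library had 2.42 (ASC replicate 1), 2.37 (ASC replicate 2), 2.36 (QSC replicate 1) and 2.36 (QSC replicate 2).

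At the edge of the definition, the nearest inside cases were separated from a peak of another group by a few bases. A region at chr13:69318536-69319192, whose nearest gene was the long noncoding RNA gene Gm35444 at 26558 bp, had fold 2.41 and 2.66 in knockdown replicates 1 and 2 and lay 2 bp from such a peak. A region in Trappc9 lay 14 bp away and one in Ap2a2, which encodes a subunit of the clathrin adaptor complex AP-2, lay 26 bp away. Just outside, a region at chr2:154226495-154227767 with knockdown folds of 2.21 and 2.29 shared 10 bp with a peak of LncMyod Control replicate 1 that had a fold of 2.51. In all, 11 knockdown-only regions lay within 100 bp of a peak of another group, 148 (8.30%) within 1 kb and 884 within 5 kb, and 33 lay more than 50 kb from any. The median distance was 5.04 kb.

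The knockdown-only regions were weak peaks in both libraries. The fold in knockdown replicate 1 ran from 1.54 to 4.73 with a median of 2.42 (quartiles 2.301 and 2.608), where the median of all peaks of that library was 3.44. In replicate 2 it ran from 1.74 to 4.13 with a median of 2.50 (quartiles 2.35 and 2.67), where the median of all peaks was 3.30. Strength percentiles rank the peaks of a library by the authors' −log10 p, which like −log10 q is larger for a more certain peak. The regions sat near the bottom of each list, at a median strength percentile of 10.5 in replicate 1 and 14.9 in replicate 2. Of them, 99.6% and 99.7% were below the median strength of their library. The −log10 q was under 2 for 65.3% of them in replicate 1 and 65.9% in replicate 2. It reached 5 for 36 regions in replicate 1, for 6 in replicate 2 and for 3 in both.

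The replicates gave these regions similar but loosely related strengths. Replicate 2 had the higher fold at 1071 regions and replicate 1 at 712, and the median absolute difference was 0.169. Across the 1783 regions Pearson's r between the folds was 0.463 and Spearman's rho 0.409, values over regions that share both libraries and that all passed the peak caller in each. The peaks of the replicates did not always sit on the same bases: a median of 44.6% of a region was covered by both, 134 regions had under 10% covered by both, and the smallest overlap was 1 bp. Wider regions were not the stronger ones. The 115 regions of 1500 bp or more had a median lower fold of 2.34 and the 346 under 400 bp one of 2.52, and Spearman's rho of width and lower fold was −0.27 over all of them.

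**Figure D1:**
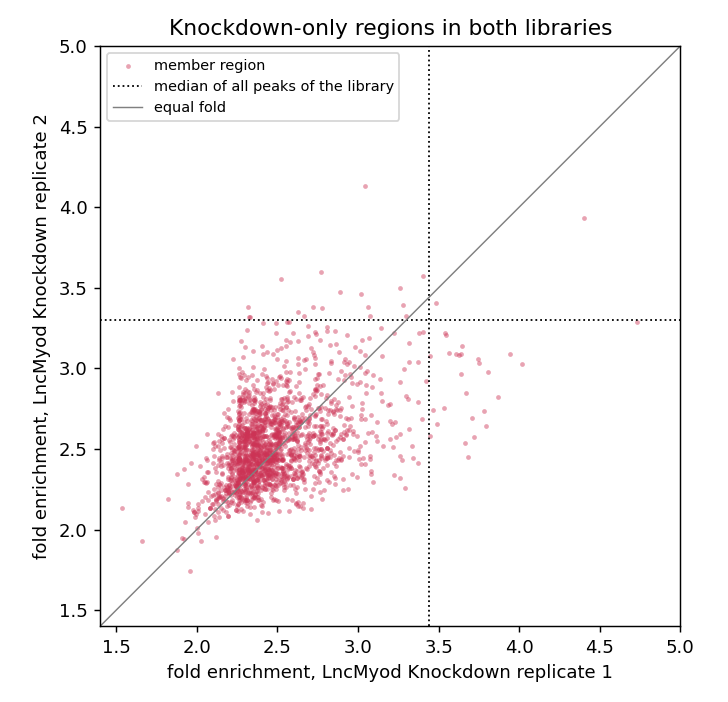
Each point is 1 of the 1783 knockdown-only regions, placed by the authors' fold enrichment in LncMyod Knockdown replicate 1 (x axis) and replicate 2 (y axis). Dotted lines mark the median fold of all peaks of each library, 3.44 and 3.30, and the grey line marks equal fold; nearly all points lie below and to the left of the medians.

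Regions that belonged to another group alone, by the same definition, had higher folds over their own backgrounds and were narrower. The median lower fold of the 2 replicates was 2.37 in the knockdown-only regions, 2.74 in those of ASC, 2.87 in those of LncMyod Control and 3.09 in those of QSC. A −log10 q of at least 5 in both replicates was reached by 0.168% of the knockdown-only regions, 6.55% of the control-only, 15.1% of the ASC-only and 27.4% of the QSC-only regions. The median width was 708 bp (quartiles 443.5 and 1008) in the knockdown-only regions, which ran from 205 to 3134 bp, against 313 bp for LncMyod Control, 446 bp for ASC and 536 bp for QSC. Folds of different libraries rest on different backgrounds, so the order of the groups is given as a description.

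**Figure D2:**
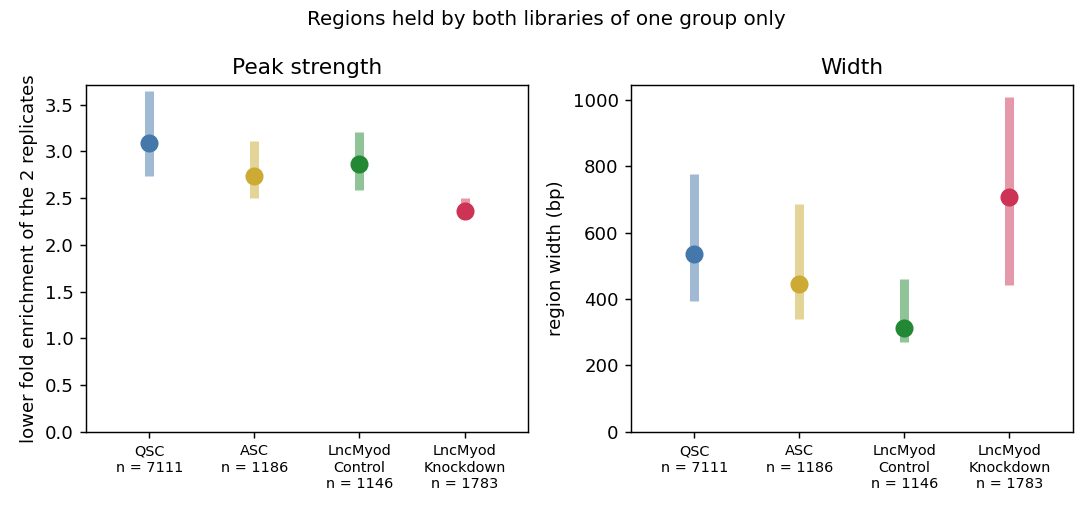
Points are medians and bars run from the lower to the upper quartile, for regions held by both libraries of 1 group and no other library. The left panel gives the lower fold enrichment of the 2 replicates and the right panel the region width in bp; the knockdown-only regions have the lowest median fold, 2.37, and the largest median width, 708 bp.

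Agreement between replicates was low in the knockdown group at every strength in replicate 1. Of the regions held by knockdown replicate 1 and no other group, 16.6% were also held by replicate 2, and 15.5% the other way round. The same shares were 28.9% and 31.1% in LncMyod Control, 25.4% and 28.0% in ASC, and 66.6% and 76.2% in QSC. In knockdown replicate 1 the share was 15.3% for regions with a −log10 q of 1 to 1.5 and 17.6% for those of 5 or more (36 of 205). In replicate 2 it went from 12.3% to 40.0% between the same classes, the latter being 6 of 15 regions. In the other groups the weakest and the strongest classes lay farther apart, from 12.0% to 46.2% in LncMyod Control replicate 1, from 7.43% to 72.7% in ASC replicate 1 and from 27.5% to 95.4% in QSC replicate 1.

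**Figure D3:**
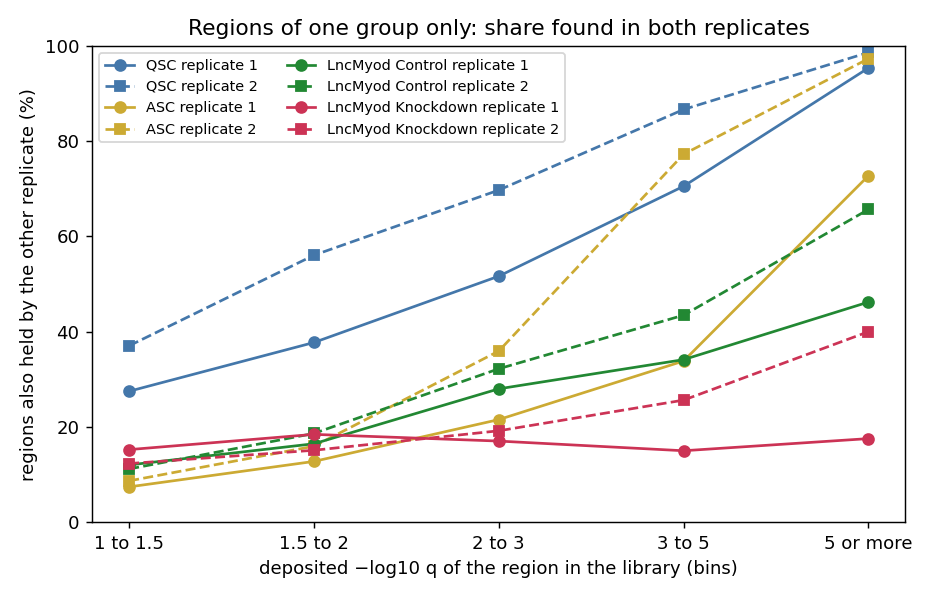
For regions held by a library and by no other group, the y axis gives the percentage also held by the other replicate and the x axis the deposited −log10 q of the region in bins. Solid lines are replicate 1 and dashed lines replicate 2; the line of LncMyod Knockdown replicate 1 stays between 15.01% and 18.5%, while every line of the other 3 groups rises from its lowest to its highest bin.

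The strongest knockdown-only region lay inside Gcfc2, a gene named for a factor that binds GC-rich DNA, at chr6:81943353-81943617. Its fold was 4.40 in replicate 1 and 3.93 in replicate 2, and its −log10 q was 8.72 and 6.09. It stood at percentile 57.9 of replicate 1 and 56.2 of replicate 2 by −log10 p, so by that measure even the leading region was close to the middle of each list. The second by lower fold, at chr4:15199963-15200452 (3.48 and 3.41), lay 50159 bp from Necab1, which encodes a neuronal calcium-binding protein. The third (3.40 and 3.57) lay 1496 bp from 1700034E13Rik. The highest fold of any knockdown-only region in replicate 1, 4.73, belonged to one at chr2:159721585-159721875, with 3.29 in replicate 2, and the nearest gene there was the long noncoding RNA gene 4933416E03Rik at 225466 bp.

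Among the other regions of the leading 20, those inside protein-coding genes had lower folds from 3.09 to 3.30. They included regions in Pde1a (3.30 and 3.32 in replicates 1 and 2), a calmodulin-dependent phosphodiesterase gene, and Hs6st3 (3.64 and 3.09), a heparan sulfate sulfotransferase gene. Atp13a4 (3.32 and 3.15), a P-type ATPase gene, and Atrnl1 (3.62 and 3.09), a relative of the gene for attractin, held others. Outside genes, the nearest protein-coding genes were Slc22a22 (an organic anion transporter gene, 227158 bp away), Rnase2a (a secreted ribonuclease gene, 14104 bp) and Sf3b1 (a splicing factor gene, 22978 bp). The rest lay in or nearest to the long noncoding RNA genes Gm36886, Gm35359, Gm38636, Gm27188, Gm35240, Gm46300 and Gm33104, and none of the 20 lay within 1 kb of a gene start in the start table. At the other end of the order, the lowest lower fold belonged to a region inside Kdm6b, with folds of 1.54 and 2.13. Kdm6b is a histone H3 lysine 27 demethylase gene. That region was lowest by fold only: its −log10 q was 2.97 and 6.41 in replicates 1 and 2, at percentiles 25.1 and 57.8. Next by lower fold were regions in Mir1a-1hg (1.66 and 1.93), a muscle miRNA host gene, and Ldb1 (1.96 and 1.74), a LIM-domain cofactor gene.

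Most knockdown-only regions lay away from gene starts. Within 1 kb of a start were 85 of the 1742 regions on chromosomes for which starts could be used (4.88%, 95% Wilson interval 3.96% to 5.99%, which takes regions as independent). The share was 11.4% for all merged regions and 32.7% for those held by all 8 libraries, and it was 2.74% for QSC-only, 4.06% for ASC-only and 3.22% for control-only regions. It depends on the start table and the distance used: it was 3.16% with protein-coding genes alone, 7.98% within 2.5 kb, and 13.6% near either end of any gene. Inside a gene body lay 1178 regions (66.1%, against 67.8% of all merged regions), and the files used here do not separate exons from introns. The median distance to a start was 20.4 kb.

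Near gene 3′ ends the share was higher than in the other group-only sets. Within 1 kb of a 3′ end lay 137 knockdown-only regions (7.87%), against 5.35% of all merged regions, 4.56% of control-only, 3.54% of ASC-only and 2.58% of QSC-only regions. Regions held by all 8 libraries had a similar share, 7.175%. The 3′ ends were those of genes in the start table. The knockdown-only regions were also less often close to constitutively open chromatin. Of them, 11.7% were within 5 kb of a region held by all 8 libraries, against 21.1% of control-only, 21.9% of QSC-only and 31.8% of ASC-only regions. The median distances to such a region differed less from control and QSC. They were 17.12 kb for knockdown-only, 15.31 kb for control-only, 15.65 kb for QSC-only and 10.92 kb for ASC-only regions. The sets differ in width as given above, and the part of width in these shares was not tested. The shares themselves are descriptions without a test.

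**Figure D4:**
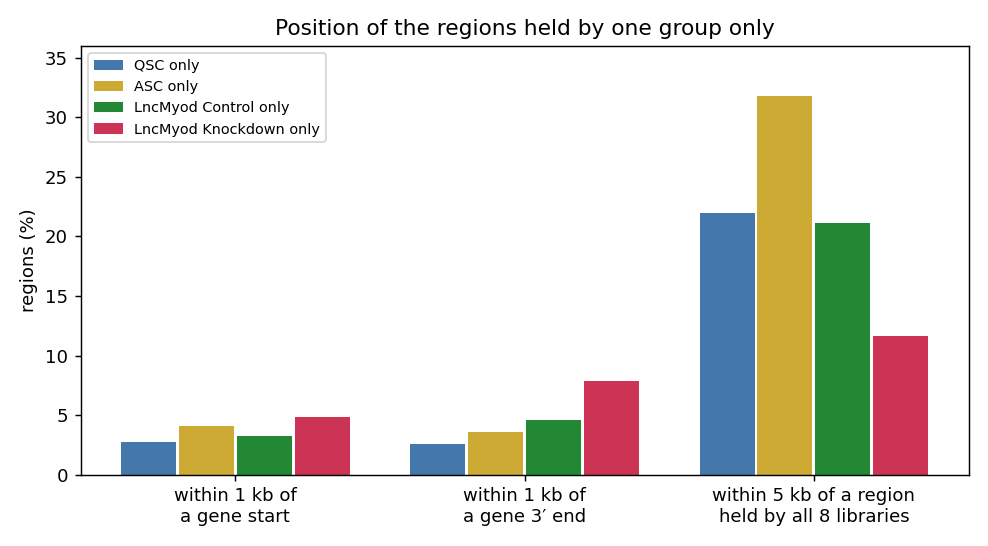
Bars give the percentage of regions held by QSC, ASC, LncMyod Control or LncMyod Knockdown alone that lie within 1 kb of a gene start, within 1 kb of a gene 3′ end, and within 5 kb of a region held by all 8 libraries. The knockdown-only regions reach 4.88%, 7.87% and 11.7%, the last being the lowest of the 4 sets.

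The regions near a start belonged to 87 genes, 55 protein-coding and 32 long noncoding, and 53 of the 85 regions held the start itself. The strongest, at chr7:57386710-57387372 (3.14 and 2.93 in replicates 1 and 2), held the starts of Gabrg3, which encodes a GABA-A receptor subunit, and of the noncoding gene Gm9962 on the other strand, and the nearest peak of another group was 121.57 kb away. The region at Dpp6 (2.92 and 2.96), which encodes an auxiliary subunit of voltage-gated potassium channels, was 76.1 kb from any such peak. Regions that held the start followed at Defb28 (3.26 and 2.91), a beta-defensin gene, Cpne4 (2.83 and 3.04), a calcium-dependent membrane-binding copine gene, and Topaz1 (2.94 and 2.68), a germ cell gene. The same was true of Ccdc185 (2.72 and 2.64), a coiled-coil protein gene, Lyz2 (2.79 and 2.64), the lysozyme gene of myeloid cells, Dcdc2c (2.89 and 2.57), a doublecortin-domain gene, and Opcml (2.57 and 2.56), which encodes a membrane-anchored adhesion protein and shares its region with Gm39314. At Dcaf4 (2.55 and 3.17), a subunit gene of a ubiquitin ligase, the start was also inside. At Nr1i2 (3.66 and 2.53), the gene of the xenobiotic receptor PXR, the region stopped 765 bp short of the start. Besides Gm9962 and Gm39314, the noncoding genes among the leading 20 were Gm40048, Gm35853, 4930556J02Rik, Gm41562, 4930527A07Rik, Gm30443 and Gm51625, with lower folds from 2.55 to 2.82.

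The promoter windows touched by knockdown-only regions held fewer CG dinucleotides than those open in all libraries. Knockdown-only regions overlapped 59 windows of 300 bases, with a median GC content of 54.7%, 6 CG dinucleotides and an observed-to-expected CG ratio of 0.269. The 14029 windows overlapped by regions held by all 8 libraries had 62.3%, 22 and 0.775, and the 14358 windows without a region had 46.3%, 3 and 0.191. All 31365 windows had 53.0%, 7 and 0.388, so that the knockdown-only promoters were close to the median promoter in GC content and below it in CG ratio. The windows of QSC-only regions had 47.5%, 4 and 0.212, those of control-only regions 50.7%, 4 and 0.209, and those of ASC-only regions 56.3%, 10 and 0.527. Of the promoters printed above, Opcml had 9 CG dinucleotides in its 300 bases, above the median of all promoters, and Defb28 (3), Ccdc185 (6) and Igf2 (2) were below it.

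The motif shares follow from letters searched on both strands in the same windows. An E-box, CANNTG, was in 81.4% of the 59 windows, in 72.2% of all promoters and in 62.2% of those open in all libraries. It was also in 79.98% of the promoters without a region, 84.6% of those of QSC-only, 83.3% of ASC-only and 91.3% of control-only regions, so the share at knockdown-only regions was within the range of the promoters outside constitutively open chromatin. CAGCTG, the CANNTG preferred by MyoD, was in 22.0% of the 59 windows, 16.3% of all and 16.0% of those open in all libraries. It was in 25% of QSC-only, 21.7% of control-only and 11.1% of ASC-only windows, and in 15% of those without a region. The other muscle-type form, CAGGTG, was in 20.3% of the 59, 20.5% of all and 18.2% of those open in all libraries. It was in 9.56% of QSC-only, 34.8% of control-only and 33.3% of ASC-only windows, and in 21.55% of those without a region. GGGCGG, the GC box bound by Sp factors, was in 20.3% of the 59 windows, 36% of all and 66.2% of those open in all libraries, and CCGGAAG, an ETS motif, in 3.39%, 9% and 17.0%. The AP-1 motif TGANTCA was in 5.09% of the 59 windows, 7.85% of all and 5.13% of those open in all libraries. It was in 13.97% of QSC-only, 8.70% of control-only and 11.1% of ASC-only windows, and in 9.93% of those without a region. With 59 windows, 1 promoter more or fewer moves such a share by over a percentage point, and no test was made.

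Most loci with a knockdown-only region had a single one. Over 33073 protein-coding and long noncoding genes on chromosomes 1 to 19, 1855 (5.61%) had at least 1 in the gene body or the 10 kb beside it. Among 20665 protein-coding genes these were 1367 (6.62%): 1241 with 1 region, 101 with 2, 23 with 3 and 2 with 4. The regions were seldom neighbours, 97 lying within 10 kb of another knockdown-only region and 355 within 50 kb.

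The 2 loci with 4 regions were long genes. Sdk2, which encodes an immunoglobulin-family adhesion molecule of synapses, had 4 of 50 merged regions, all inside the gene, with folds from 2.13 to 2.45 in replicate 1 and from 2.23 to 2.48 in replicate 2. Trappc9, encoding a subunit of the vesicle-tethering TRAPP complex, had 4 of 60, with 2.20 to 2.81 and 2.40 to 2.49. The next loci had 3 each: Fcgbp (a mucin-like protein gene, 3 of 10 regions), Tango2 (named for Golgi organization, 3 of 10), Slc41a3 (a magnesium transporter family gene, 3 of 12) and Pla2g5 (a secreted phospholipase A2 gene, 3 of 16). So had Ccdc57 (a coiled-coil protein gene, 3 of 19), Rab11fip3 (a Rab11 effector gene, 3 of 19) and Phactr1 (an actin and phosphatase regulator gene, 3 of 23). At Fcgbp the peaks outside the knockdown-only regions covered 695 and 679 bp in the QSC libraries, 279 and 814 bp in ASC, 685 and 0 bp in LncMyod Control, and 2968 and 1283 bp in LncMyod Knockdown. The knockdown libraries thus had more covered bases there than any other library also beside the chosen regions. The locus was named for its knockdown-only regions, so these values are not independent of the choice. They are also not scaled to the bases each library covered.

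Igf2, the gene for insulin-like growth factor 2, a growth factor of muscle differentiation, had 3 knockdown-only regions among the 7 merged regions of its locus (gene body chr7:142650768-142666816, minus strand). The first, chr7:142646911-142647368, beyond the 3′ end, had folds of 2.72 and 2.58 in knockdown replicates 1 and 2. The second, chr7:142654510-142655190, inside the gene, had 2.01 and 2.11, among the weaker regions. The third, chr7:142666148-142667418, had 2.27 and 2.77 and spanned the gene start given in the table, whose upstream sequence is printed above. Igf2 has several promoters, and the table holds 1 start for it. Peaks other than these regions covered 2688 and 1603 bp of the locus in QSC, 2536 and 1525 bp in ASC, 838 and 1922 bp in LncMyod Control, and 2570 and 1503 bp in LncMyod Knockdown. Outside the chosen regions the knockdown libraries thus lay within the range of the other libraries. H19, the imprinted noncoding RNA gene next to Igf2, lay 68.8 kb from the nearest knockdown-only region.

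The region inside Igf2 covered the hairpin of Mir483, a miRNA gene in an intron of Igf2. Altogether 7 miRNA hairpins overlapped 6 knockdown-only regions, of 237 hairpins that overlapped any merged region (2.95%) and 919 on chromosomes 1 to 19. miRNA genes were looked at after the values were seen. The mature sequences of the hairpins that lay whole inside a region and belong to the Igf2 locus or to the miR-200 family follow, from RefSeq on GRCm38.p6, 5′ to 3′, with the seed (bases 2 to 8) in capitals, since the seed sets which messenger RNAs a miRNA pairs with.
mmu-miR-483-5p: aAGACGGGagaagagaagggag
mmu-miR-483-3p: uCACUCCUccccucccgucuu
mmu-miR-429-3p: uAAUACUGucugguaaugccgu
mmu-miR-429-5p: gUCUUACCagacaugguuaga
Mir429 lay in a region at chr4:156053626-156054900 with folds of 2.257 and 2.161 in knockdown replicates 1 and 2. The miR-200 family, to which miR-429 belongs, is best known from epithelial cells. The same region reached the last bases of the Mir200a hairpin, at its 3′ end, but not its mature sequences, and Mir200b lay within 1 kb of it. The other hairpins were Mir6956 (2.22 and 2.35), Mir7677 (2.01 and 2.16), Mir8090 (2.44 and 2.65) and Mir7063 (2.56 and 2.31).

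Among gene lists, several held no knockdown-only region, the myogenic program among them, and the list with Igf2 had the highest share. For each list the count is of knockdown-only regions among all merged regions in the loci of the list, to be read against the 1.28% over all regions. No region was at the 31 myogenic program genes (0 of 333 merged regions). At shares of 1.28% of regions and 6.62% of protein-coding genes, a list of this size would hold few. The cultured libraries alone held 27 regions there and LncMyod Control alone 6, where these sets make up 4.79% and 0.824% of all merged regions. The region nearest to Myod1 was 102.07 kb from it. There was also none at cell cycle genes (0 of 192), AP-1 and immediate early genes (0 of 139), chondrogenic and osteogenic genes (0 of 244), interferon genes (0 of 80) or hepatocyte genes (0 of 48). These counts were not tested.

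IGF2BP proteins and their known RNA targets had 5 of 161 regions (3.11%), at 3 of 14 genes against 5.61% of all genes and 6.62% of protein-coding genes. Igf2 supplied 3 of the 5, so 1 locus makes up most of the count. Igf2bp2, which encodes the known LncMyod partner, had 1 region inside the gene, chr16:22147973-22148307, with folds of 2.36 and 2.60 in knockdown replicates 1 and 2. At Igf2bp2 the other peaks covered 7509 and 8195 bp in QSC, 8130 and 9218 bp in ASC, 4687 and 3954 bp in LncMyod Control, and 5637 and 5223 bp in LncMyod Knockdown. The knockdown libraries were between the control and the isolated libraries there. Igf2r, which encodes the receptor that clears IGF2, had 1 region (2.81 and 2.44).

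Contractile and calcium handling genes had 5 of 510 regions (0.980%). Of these, 2 were in Myom3 (2.44 and 2.92, and 2.36 and 2.43 in replicates 1 and 2) and 1 in Myom1 (2.54 and 2.35), genes of the myomesins that crosslink myosin filaments. The others were in Ckm (2.00 and 2.01), the muscle creatine kinase gene, and Nebl (2.58 and 2.63), which encodes the nebulin relative nebulette. Genes of quiescent satellite cells had 2 of 595 regions (0.336%), in the teneurin genes Tenm3 (2.41 and 2.46) and Tenm4 (2.62 and 2.32), while QSC alone held 54 regions at this list. The Notch pathway had 1 of 264, beside the coactivator gene Maml3 (2.39 and 2.61).

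Wnt, BMP and TGF-beta genes had 5 of 513 regions (0.975%), near the share over all regions. The 5 regions were at 5 of 46 genes (10.9%, against 5.61% of all genes and 6.62% of protein-coding genes). They lay at the Wnt effector genes Lef1 (2.44 and 2.34), Tcf7 (2.52 and 2.78) and Tcf7l2 (2.52 and 2.94) and at the receptor genes Bmpr2 (2.28 and 2.82) and Tgfbr2 (2.74 and 2.64). Axon guidance genes had 3 of 549 (0.546%), at 3 of 29 genes (10.3%), in Epha4 (3.04 and 2.97), an ephrin receptor gene, in Slit3 (2.43 and 2.71) and beside Slit1 (2.22 and 2.50), which encode Robo ligands. Matrix and protease genes had 3 of 604 (0.497%), at 3 of 47 genes (6.38%), namely Fbn1 (2.47 and 2.52, fibrillin), Fn1 (2.51 and 2.60, fibronectin) and Lama3 (2.21 and 2.58, a laminin chain).

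Markers of other lineages had between 0 and 3 regions each. Neuronal lineage genes had 3 of 456 (0.658%), with 2 in Rbfox3 (2.40 and 2.16, and 2.31 and 2.15), the neuronal splicing factor NeuN, and 1 in Lhx2 (2.76 and 3.18), a LIM homeobox gene. Mural and smooth muscle genes had 2 of 142 (1.41%), in Myh11 (2.71 and 2.13), the smooth muscle myosin gene, and Cnn1 (2.18 and 2.263), the calponin gene. Of the rest, 1 region each was at Cebpb (adipogenic, of 259), Pmp22 (glial, of 88), Vwf (endothelial, of 160), Col6a3 (fibroadipogenic, of 159), Lyz2 (leukocyte, of 121) and Grhl3 (epithelial, of 121). Lyz2 was the exception in how empty its locus was: the knockdown-only region was the only merged region there, and the 8 libraries covered 0 bp besides it.

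**Figure D5:**
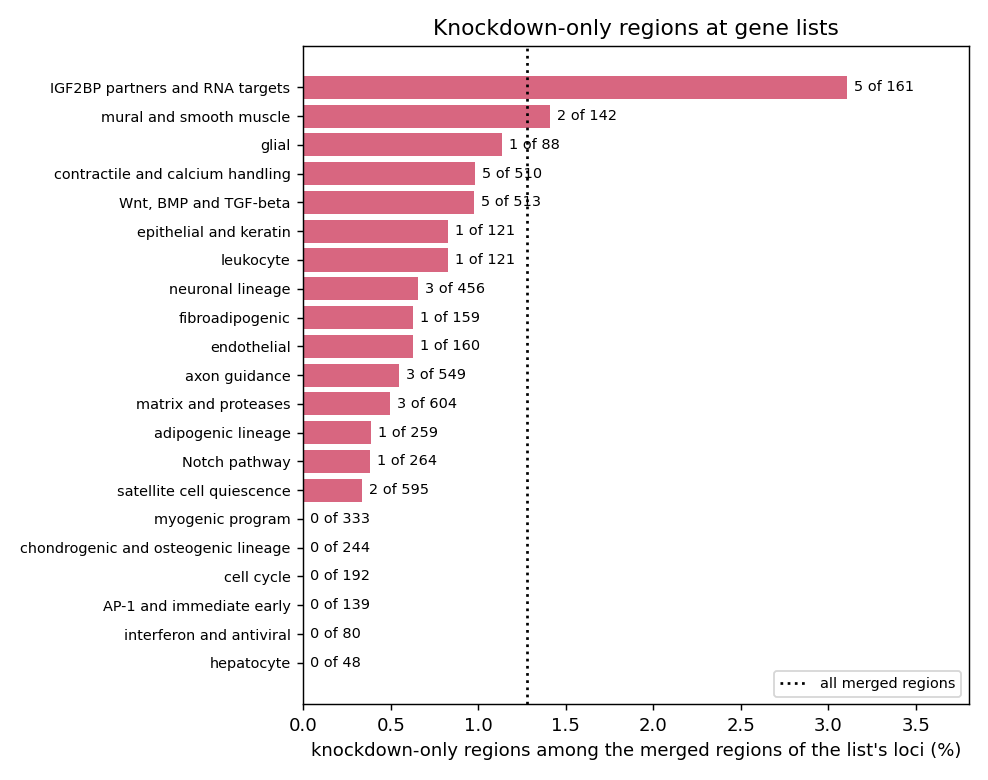
For each of 21 gene lists, the bar gives knockdown-only regions as a percentage of all merged regions in the loci of the list (gene body with 10 kb on both sides), with the counts beside it; the dotted line is the 1.28% over all merged regions. The IGF2BP list (5 of 161) and the mural list (2 of 142) lie above the line, and 6 lists hold 0.

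The regions were spread over all 19 chromosomes with some unevenness. As a share of the merged regions of a chromosome they ran from 0.833% on chromosome 3, 0.845% on chromosome 1 and 0.882% on chromosome 18 to 1.53% on chromosome 11, 1.56% on chromosome 5 and 1.77% on chromosome 17. The control-only regions ran from 0.602% to 1.01% and the QSC-only regions from 2.97%, on chromosome 11, to 7.06%, on chromosome 13. Chromosome 11 was thus high in knockdown-only and low in QSC-only regions. No batch or date of preparation is recorded in the labels used here.

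The 1 comparison that was tested asked whether peaks of cultured control cells were denser around the knockdown-only regions than peaks of isolated cells. The regions were chosen to lack peaks of these same 6 libraries, so the comparison is not independent of that choice. Within 10 kb on both sides of the regions, an area of 34.8 Mb, lay 1.99% and 2.02% of the covered bases of the LncMyod Control libraries. The QSC libraries had 1.82% and 1.80% there and the ASC libraries 1.99% and 2.12%. Control libraries had 2.00% ± 0.0176 (SD, n = 2) and isolated libraries 1.93% ± 0.151 (SD, n = 4). The difference was 0.0699 percentage points (exact two-sided permutation p = 0.667 over 15 splits, the smallest possible being 0.0667). It lay within the spread of the isolated libraries, but that spread includes the step between QSC (mean 1.814%) and ASC (mean 2.055%). The p-value therefore does not measure the spread between replicates alone. This design cannot reach a p of 0.05. The groups overlapped, ASC replicate 2 being the highest of the 6. Both control libraries lay above both QSC libraries and between the ASC libraries. The knockdown libraries themselves had 2.21% and 2.21%, above all 6 others, a value that is likewise not independent of how the regions were chosen.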

How the data were processed

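ATAC-seq was analysed in 8 libraries of mouse satellite cells, 2 in each of 4 groups. Per the submitters' processing notes, the authors used MACS2 2.1.1, Bowtie2 2.3.2, Trimmomatic 0.36, SAMtools 1.3, bedtools 2.26.0, Picard 2.9.2 and bcl2fastq 2.19, with the build mm10. Tool settings, including any shift of read ends for Tn5, are not stated in what was used here. The authors deposited 1 list of broad peaks per library. Each deposited peak carries a fold enrichment, which is a ratio over local background, a −log10 p and a −log10 q, and a display score that was not used. Fold and q are the authors' values for ranking and filtering within a list, and medians of different libraries are set side by side as a description only. Calling depends on depth, so a deeper library can give more and wider peaks. Depth is not given, and no counting interval was made.

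Peaks on chromosomes 1 to 19 were merged with numpy 2.4.6 and pandas 2.3.3 under Python 3.11.15, and the permutation test was computed by full enumeration. Figures used matplotlib 3.10.9. The merging and the definition of the regions were tested on simulated data. Gene bodies came from RefSeq on GRCm38.p6, which shares its chromosome coordinates with mm10. Starts came from its promoter table, which holds 79.6% of the protein-coding genes on chromosomes 1 to 19 and none on chromosome 18, so 41 regions there have no start distance. Of 584 entries in 21 gene lists, 570 matched a gene on the chromosomes used. A locus is a gene plus 10 kb beyond each end, and neighbouring loci can share regions. The genes named are those at the 20 regions with the highest lower fold, the 10 protein-coding genes with the most regions, the 20 leading genes near a start, list genes with the most regions, and Myod1 and Igf2bp2. List counts of 5 or fewer are named in full. Some of the genes that this rule names are not reported here. The regions and the lists were chosen with earlier results of these data known. The alternatives were stricter q thresholds, equal list lengths, other merging and overlap rules, chromosome X, other distances and scalings, and leaving out each library.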

Additional observations from a re-analysis of the deposited data

How the results depend on the processing

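The number of knockdown-only regions depended on the peak threshold and on list length. It was 1783 with the lists as deposited, 464 with all libraries at a −log10 q of at least 2 (280 of the 1783 remained), and 84 with all libraries at 5 or more, of which 3 overlapped the 1783. It was 3 with only the knockdown libraries at 5 or more, and 295 with every list reduced to its strongest 58791 peaks, of which 39 overlapped the 1783. At 5 or more in all libraries, control-only regions were 1395, against 1146 as deposited. Leaving out 1 library gave from 1817 to 11663 regions. The highest values were 11663 without knockdown replicate 1 and 10847 without replicate 2, where a single library defines the set. In the other 10 settings the count stayed within 1.5 times of 1783, but with peaks required to cover at least 50% of a region the 1678 regions took in only 1052 (59.0%) of the 1783. The share within 1 kb of a start, 4.88%, was 0% for the 3 regions, 2.80% with equal lengths, from 3.52% to 5.52% when 1 library was left out, 7.98% within 2.5 kb, 3.16% for protein-coding genes alone and 13.6% for either end of any gene. The difference between control and isolated libraries in covered bases near the regions was 0.0699 percentage points. It turned to −0.00186 with all libraries at 5 or more (exact permutation p = 0.800). With the knockdown libraries at 5 or more it was −0.00404 (exact permutation p = 0.0667, the smallest possible). That value rests on the flanks of 3 regions, chosen for lacking peaks of the 6 libraries compared, so no reversal can be read from it. The difference kept its sign elsewhere, from 0.0301 to 0.903 when 1 library was left out. As a share of covered bases around the regions, it depends on how many regions there are. The 0.903 came from 11663 regions and the −0.00186 from 84, so these sizes cannot be compared as 1 effect. The causes were not tested. Merging peaks that touch and counting either end of a gene were chosen after seeing the data. No paired analysis was possible because 2 control libraries were compared with 4 isolated libraries and the other results come from no test. The lists limit what can be said of depth: a weak peak in 1 library and its absence in another may differ little in reads.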

Other observations

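Chromosome X lies outside the definition and added 2 regions held by both knockdown libraries and no other, for 1785 in all. The set of regions passing a −log10 q of at least 5 in every list used differs from the one described: it holds 84 knockdown-only regions, or 0.111% of 75487 merged regions, against 1.85% for LncMyod Control, 1.07% for ASC and 6.13% for QSC under the same threshold. As deposited, the knockdown-only share of 1.28% lay above those of LncMyod Control (0.824%) and ASC (0.852%), so the order of the groups turned with the threshold. No test was made of this order.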
